A study of Homo sapiens with 24 samples.

Results

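Expression of 10 genes of Notch signalling was followed through the response of 2 cholangiocarcinoma cell lines to YC-1. They are the Mastermind coactivators MAML1, MAML2 and MAML3, the receptors NOTCH1, NOTCH2 and NOTCH3, the DNA-binding partner RBPJ, the ligand JAG1 and the target genes HES1 and HEY1. They were taken by symbol from a table of 57820 rows, and all 10 were among the 17860 genes with enough signal to be tested. The set was selected on measured values, because MAML2 and MAML3 had been seen to be strongly lower under YC-1. The levels with YC-1 and with DMSO are therefore given here as a description without a p-value. For these 10 genes, tests are kept for other comparisons. Of those, the comparisons between DMSO groups did not enter the choice. RBE and SNU1079 are human lines from bile duct cancer, both carrying mutant IDH1 and both described in the labels as expressing SULT1A1, a sulfotransferase. Cells received YC-1, a benzylindazole best known for stimulating soluble guanylate cyclase and for lowering HIF-1, or its vehicle DMSO. RNA was taken after 6 or 16 h, which gives 8 groups of 3 libraries, described as biological replicates. The labels give no dose of YC-1, and each line stands for 1 tumour.

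Notch signalling passes between touching cells. A ligand such as JAG1 on one cell binds a Notch receptor on the next, the receptor is cut by ADAM10 and then by gamma-secretase, and its intracellular domain moves to the nucleus. There it joins RBPJ on DNA, and the complex recruits a Mastermind protein, which brings in histone acetyltransferases such as EP300 and turns on targets of the HES and HEY families, themselves repressors. Without the receptor domain, RBPJ holds the same targets down through corepressors. In the liver, JAG1 and NOTCH2 are known for their part in forming the bile ducts.

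The Mastermind genes differ in size more than in exon number. In GENCODE 29 on GRCh38, MAML1 (ENSG00000161021) runs over 44.4 kb of chromosome 5 (179732850 to 179777286, plus strand), MAML2 (ENSG00000184384) over 366.6 kb of chromosome 11 (95976598 to 96343180, minus strand) and MAML3 (ENSG00000196782) over 437.4 kb of chromosome 4 (139716753 to 140154184, minus strand). The longest coding transcript of each has 5 exons. In each the first intron is the longest, at 31.9 kb in MAML1, 247.9 kb in MAML2 and 261.9 kb in MAML3. Exons cover 13.37% of the span of MAML1, 1.94% of MAML2 and 1.6% of MAML3. MAML3 overlaps MGST2 on the opposite strand, which had a mean normalised count of 165. Whether counting used strand is not given in the sources used here, so reads from the overlap may not be told apart.

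The bases before the start of transcription are shown for the 3 Mastermind genes, which went different ways, and for HES1, which holds the binding motif of RBPJ. They come from the RefSeq promoter table (GRCh38.p14), in which 9 of the 10 genes were matched, all but HEY1. Each sequence gives the 250 bases before the start, 5′ to 3′ on the gene's strand. Capitals mark the RBPJ core motif TGGGAA on either strand or the AP-1 motif TGANTCA.
MAML1, chr5:179732572-179732821, plus strand: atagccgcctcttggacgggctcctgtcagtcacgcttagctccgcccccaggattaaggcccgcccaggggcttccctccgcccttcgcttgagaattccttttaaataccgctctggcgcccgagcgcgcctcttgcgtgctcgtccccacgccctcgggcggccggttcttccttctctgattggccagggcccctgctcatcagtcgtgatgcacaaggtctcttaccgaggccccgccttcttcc
MAML2, chr11:96343196-96343445, minus strand: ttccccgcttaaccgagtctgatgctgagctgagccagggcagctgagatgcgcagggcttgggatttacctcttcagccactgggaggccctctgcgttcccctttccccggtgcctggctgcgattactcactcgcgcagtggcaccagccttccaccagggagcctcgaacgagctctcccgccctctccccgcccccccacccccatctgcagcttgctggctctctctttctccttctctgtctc
MAML3, chr4:140154185-140154434, minus strand: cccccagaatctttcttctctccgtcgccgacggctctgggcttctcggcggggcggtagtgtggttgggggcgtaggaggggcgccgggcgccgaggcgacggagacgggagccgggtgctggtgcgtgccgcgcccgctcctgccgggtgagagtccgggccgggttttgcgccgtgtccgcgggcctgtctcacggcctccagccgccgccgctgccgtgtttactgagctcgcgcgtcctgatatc
HES1, chr3:194135898-194136147, plus strand: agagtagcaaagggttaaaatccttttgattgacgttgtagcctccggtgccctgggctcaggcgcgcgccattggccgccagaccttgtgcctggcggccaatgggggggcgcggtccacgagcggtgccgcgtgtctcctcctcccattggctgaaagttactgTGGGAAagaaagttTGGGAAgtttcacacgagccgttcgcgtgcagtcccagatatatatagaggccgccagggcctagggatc
HES1 has 2 copies of TGGGAA, 84 to 79 and 70 to 65 bases before its start, both on the plus strand. The 3 Mastermind windows hold neither motif. Among the windows not shown, that of RBPJ start number 2 has the RBPJ core 115 to 110 and 72 to 67 bases before the start. That of RBPJ start number 5 has the AP-1 motif 250 to 244 bases before it, and the remaining windows hold neither. Of 35116 windows of the same length in the table, 20.8% hold the RBPJ core and 6.57% the AP-1 motif, and a match of one cannot overlap a match of the other. These matches describe letters and do not show binding. The share of G and C was 64.0% in MAML1, 63.6% in MAML2, 72.4% in MAML3 and 59.2% in HES1.

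The normalised counts of a library summed to between 19005743 and 27008873. SULT1A1 lay between 1433 and 1916 in RBE and between 1023 and 1912 in SNU1079. The bile duct markers KRT7, KRT19, EPCAM and SOX9 were present in every library, while CFTR was at most 7.10. Of 6 hepatocyte markers, SERPINA1 was high in both lines and APOB was at 0 throughout. The leukocyte marker PTPRC was at most 6.73 while CD68 lay between 1036 and 4110, and DCN of stromal cells was at 0, but COL1A1 lay between 661 and 3808 in SNU1079. Mitochondrial transcripts took 6.02% to 8.50% of the signal with DMSO and up to 17.0% in RBE and 22.1% in SNU1079 with YC-1, and the part of this in the values below was not tested. In SNU1079, 3 libraries stood apart from their group: DMSO 16 h replicate 1, YC-1 6 h replicate 1 and YC-1 16 h replicate 2, the last with 3.38% mitochondrial signal. Values without these 3 are given where they matter. They were picked after the data were seen. YC-1 16 h replicate 3 was kept, although its mean correlation with its group mates was 0.959, as was that of replicate 2. It had 22.1% mitochondrial signal. As in any bulk sample, fewer cells with a transcript and less of it per cell cannot be told apart.

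The level of a gene is its normalised count, and the difference between groups is that of the mean log2(normalised count + 1), given with its SE from limma over 3 libraries a group. For genes near 0 the added 1 shrinks this difference. It can still be larger than the ratio of group means, as for MAML3 in SNU1079 at 16 h (-4.49 on the log2 scale, 13.5-fold in the means). Scaling the libraries to equal sums instead moved the median gene of RBE at 16 h from 0.02 to -0.27, and that of SNU1079 from 0.06 to -0.25. For RBE this turned 4867 genes called higher and 4754 called lower at 16 h into 2904 and 6474. For SNU1079 it turned 5130 and 4611 into 3068 and 6598. Members whose call depends on this are named below.

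With YC-1 at 6 h in RBE, 3 of the 10 genes were called higher and 3 lower at an adjusted p under 0.05 in limma, where 11.6% of all tested genes were called higher and 12.4% lower. At 16 h the counts were 3 and 4, against 27.3% and 26.6% of all genes. In SNU1079 they were 3 and 4 at 6 h, against 14.0% and 14.2%, and 4 and 3 at 16 h, against 28.7% and 25.8%. Since the genes were chosen with these contrasts in view, nothing is read from the counts. Calls of single genes of the 10 in these contrasts, kept or lost below, likewise describe the fit and are not tests. The median difference of the 10 genes lay between 0.22 and 0.27, and that of all tested genes between 0.00 and 0.06.

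**Figure D1:**
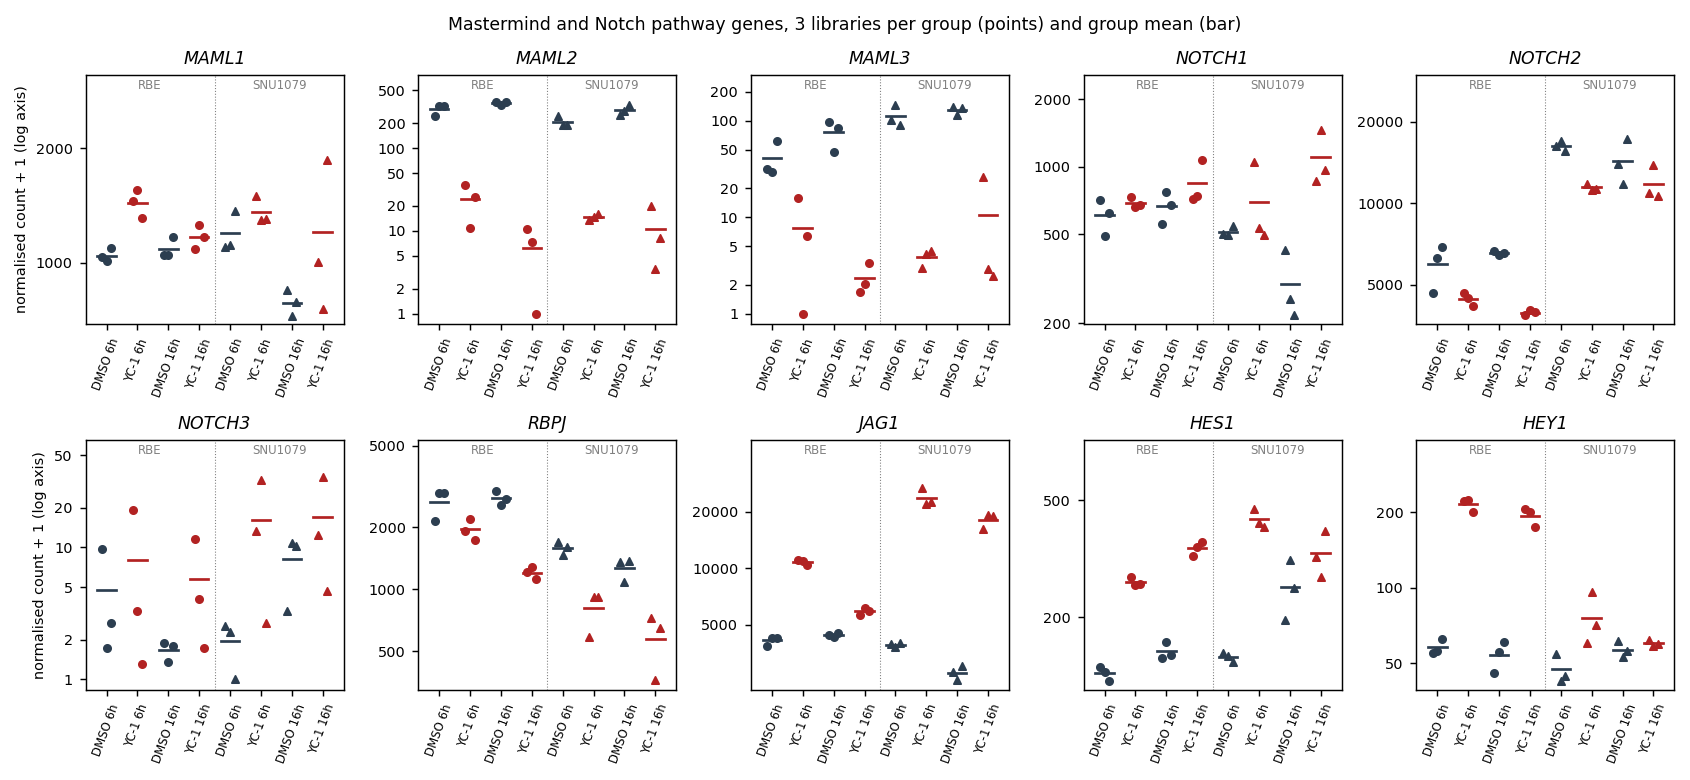
Level of each of the 10 genes in every library, as normalised count + 1 on a log axis, for RBE (circles) and SNU1079 (triangles) with DMSO (dark) or YC-1 (red). Points are the 3 libraries of a group and bars their means. Every YC-1 library of MAML2 and MAML3 lies below every DMSO library of its line and time, while JAG1 lies above in all 4 comparisons.

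MAML2 almost disappeared from the libraries treated with YC-1. In RBE at 6 h its normalised counts were 245, 319 and 320 with DMSO and 34.6, 9.74 and 24.7 with YC-1, and the means differed 12.8-fold. At 16 h they were 359, 328 and 360 with DMSO and 9.43, 6.42 and 0 with YC-1, a 66.1-fold difference in means. All YC-1 libraries of RBE lay below all DMSO libraries. In SNU1079 at 6 h MAML2 stood at 246, 189 and 188 with DMSO against 12.6, 13.9 and 14.9 with YC-1, 15-fold lower. At 16 h it stood at 247, 279 and 332 with DMSO against 18.9, 2.45 and 7.24, 30-fold lower. Here too the groups did not overlap, and the highest YC-1 library at 16 h was replicate 1. These ratios rest on few counts: at 16 h they became 109 in RBE without YC-1 replicate 1 and 44.0 without replicate 3, and 59.1 in SNU1079 without YC-1 replicate 1. On the log2 scale RBE differed by -3.78 ± 0.64 at 6 h and -6.36 ± 0.64 at 16 h, and SNU1079 by -3.81 ± 0.64 and -5.11 ± 0.64.

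MAML3, with DMSO the least abundant of the 3 Mastermind genes per exonic length, was lower to a similar degree. In RBE at 6 h it had 30.6, 28.8 and 60.5 with DMSO and 15, 0 and 5.42 with YC-1, a 5.87-fold difference in means. The later values were 95.3, 46.2 and 82.3 against 0.681, 1.02 and 2.40, or 54.6-fold. The DMSO libraries of RBE lay far from each other at both times, but none reached down to a YC-1 library. In SNU1079 at 6 h MAML3 had 102, 146 and 89.2 with DMSO and 2.0, 3.16 and 3.49 with YC-1, 38.9-fold lower. The later values there were 138, 114 and 133 against 25.1, 1.95 and 1.44, 13.5-fold lower, and replicate 1 with 25.1 lay well above its mates. The log2 differences of MAML3 were -3.05 ± 0.79 and -5.0 ± 0.79 for RBE, then -4.85 ± 0.79 and -4.49 ± 0.79 for SNU1079. Without RBE YC-1 6 h replicate 2, which was listed at 0, the first of these became -1.93 and was no longer called. Leaving out each library in turn moved the MAML3 value of SNU1079 at 16 h between -3.88 and -5.59, the latter without YC-1 replicate 1. The MAML3 ratio there was 75.9 without that library, that of RBE at 6 h was 14.7 without YC-1 replicate 1 and 3.91 without replicate 2, and that of RBE at 16 h 87.7 without YC-1 replicate 3.

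MAML1, the short member of the family, had a mean above its controls in all 4 comparisons, although with libraries scaled to equal sums the value for MAML1 in RBE at 16 h was -0.22. In RBE at 6 h it measured 1032, 1012 and 1090 with DMSO and 1453, 1548 and 1312 with YC-1, so that all 3 treated libraries were above the controls. At 16 h it measured 1045, 1048 and 1170 against 1088, 1253 and 1168, and the groups overlapped. In SNU1079 at 6 h the counts were 1101, 1115 and 1371 with DMSO and 1494, 1293 and 1299 with YC-1, again overlapping. Those at 16 h were 847, 722 and 787 against 1006, 754 and 1860. The last group spread widely, with replicate 2 inside the range of the controls and replicate 3 far above it. On the log2 scale MAML1 differed by 0.46 ± 0.20 and 0.11 ± 0.20 for RBE, and by 0.19 ± 0.20 and 0.52 ± 0.20 for SNU1079. The only call in the main fit was that at 16 h for SNU1079. It was lost without YC-1 replicate 3 (0.15) and without DMSO replicate 2 (0.46) or 3 (0.52). It was also lost with libraries scaled to equal sums (0.16), with no filter on low values and with only the 12 libraries of the line. Without the 3 libraries that stood apart the value was 0.86. For RBE at 6 h, MAML1 was called higher with only the 12 libraries of the line in the fit.

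Per kilobase of exon in GENCODE 29, MAML1 was the main Mastermind transcript in both lines already with DMSO. In RBE at 16 h it had 183 ± 12 normalised counts per kb (SD, n = 3), MAML2 49.1 ± 2.54 and MAML3 10.6 ± 3.62. With YC-1 these became 197 ± 13.9, 0.743 ± 0.678 and 0.195 ± 0.130. MAML1 thus held 73.3% to 77.0% of the summed Mastermind level in the DMSO libraries of RBE at 16 h and 99.2% to 99.8% in the YC-1 libraries. In SNU1079 at 16 h its share went from between 66.8% and 72.4% to between 96.4% and 99.6%. The authors' annotation is not given in the sources used here, so the exon lengths may not be those behind the counts.

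RBPJ, the DNA-binding protein that Mastermind and the receptor domain join, was lower under YC-1 by far less. In RBE at 6 h it had 2142, 2942 and 2929 with DMSO and 1919, 2202 and 1741 with YC-1, and DMSO replicate 1 fell within the treated range. The 16 h libraries had 3003, 2579 and 2737 against 1211, 1277 and 1123, with no overlap. In SNU1079 at 6 h it had 1695, 1472 and 1597 against 584, 920 and 911. At 16 h it had 1358, 1087 and 1377 against 720, 360 and 643. Neither comparison overlapped, and in each the lowest library was one that stood apart. The values on the log2 scale were -0.44 ± 0.21 and -1.20 ± 0.21 for RBE, then -1.01 ± 0.21 and -1.20 ± 0.21 for SNU1079. Without the 3 libraries the SNU1079 values were -0.79 and -0.85. For RBE at 6 h, RBPJ was called lower with only the 12 libraries of the line in the fit. RBPJ (ENSG00000168214, chromosome 4, 26163455 to 26435131, 271.7 kb) has processed pseudogenes that could share its reads.

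The receptors went different ways. NOTCH2 (ENSG00000134250, chromosome 1, 119911553 to 120069626, 158.1 kb), the receptor with the highest level per exonic kilobase, had 4654, 6260 and 6891 in RBE with DMSO at 6 h and 4644, 4469 and 4152 with YC-1. The 16 h libraries had 6666, 6440 and 6564 against 3847, 4021 and 3954. The groups were apart at both times, narrowly at 6 h. In SNU1079 NOTCH2 had 16195, 16896 and 15605 with DMSO at 6 h and 11794, 11155 and 11308 with YC-1, also apart. At 16 h it had 13988, 11737 and 17298 against 10897, 13793 and 10586, and the ranges overlapped. NOTCH2 differed by -0.41 ± 0.13 and -0.74 ± 0.13 for RBE, and by -0.51 ± 0.13 and -0.28 ± 0.13 for SNU1079, on the log2 scale. The first was no longer called with no filter on low values or without DMSO replicate 2 or 3 or YC-1 replicate 2 or 3. The last was called with libraries scaled to equal sums (-0.64) and without the 3 libraries that stood apart (-0.41). Reads from the near-identical NOTCH2NL genes could be counted here.

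NOTCH1 (ENSG00000148400, chromosome 9, 136494433 to 136545786, 51.4 kb) was higher in SNU1079 at 16 h. There its counts were 424, 256 and 217 with DMSO and 864, 1463 and 969 with YC-1, 3.67-fold apart in the means and without overlap. At 6 h the SNU1079 counts were 498, 496 and 542 against 1051, 534 and 493, where replicate 1, a library that stood apart, made the difference. In RBE the counts were 707, 487 and 621 against 731, 659 and 673 at 6 h. The 16 h counts were 555, 766 and 673 against 713, 738 and 1073. All 3 of these comparisons overlapped, with differences of 0.35 ± 0.27 in SNU1079 at 6 h, 0.20 ± 0.27 in RBE at 6 h and 0.33 ± 0.27 in RBE at 16 h, against 1.90 ± 0.27 in SNU1079 at 16 h. Without the library that stood apart the SNU1079 value at 6 h was 0.00. NOTCH3 (ENSG00000074181, chromosome 19, 15159038 to 15200981, 41.9 kb) was close to 0, with no library above 33.2. Its 3 YC-1 libraries in SNU1079 at 6 h, at 12.2, 31.4 and 1.68, lay above DMSO at 1.55, 1.30 and 0, and its other comparisons overlapped, with an SE of 1.0 throughout.

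JAG1 (ENSG00000101384, chromosome 20, 10637684 to 10673999, 36.3 kb), the ligand, had the clearest excess under YC-1. In RBE at 6 h its counts were 3879, 4258 and 4264 with DMSO and 11118, 10985 and 10447 with YC-1, 2.62-fold apart. At 16 h they were 4405, 4298 and 4527 against 5661, 6179 and 5890, 1.34-fold apart. The libraries of each group lay close together, and at 16 h the treated level was below that at 6 h but still above all controls. In SNU1079 the 6 h counts were 3937, 3806 and 4022 against 26850, 21986 and 22554, 6.07-fold apart. Those at 16 h were 2802, 2542 and 3010 against 16240, 19235 and 18938, 6.51-fold apart. No comparison overlapped. On the log2 scale JAG1 differed by 1.39 ± 0.09 and 0.42 ± 0.09 for RBE, and by 2.60 ± 0.09 and 2.70 ± 0.09 for SNU1079. The RBE value at 16 h was 0.10 and not called with libraries scaled to equal sums. In RBE HEY1 differed by more than JAG1 at both times, at 1.90 and 1.86.

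HES1 (ENSG00000114315, chromosome 3, 194136145 to 194138732, 2.6 kb), the repressor whose upstream window with 2 RBPJ motifs is shown above, was higher in RBE at both times. Its counts were 135, 129 and 121 with DMSO against 274, 257 and 260 with YC-1 at 6 h, and 145, 164 and 149 against 322, 346 and 358 at 16 h. SNU1079 at 6 h had 151, 147 and 141 against 467, 417 and 406, 2.95-fold apart. The counts at 16 h were 196, 313 and 251 against 321, 273 and 392, and the ranges overlapped. The DMSO libraries there were themselves higher than at 6 h. HES1 differed by 1.03 ± 0.15 and 1.16 ± 0.15 for RBE, and by 1.55 ± 0.15 and 0.39 ± 0.15 for SNU1079, on the log2 scale. The last call was lost with libraries scaled to equal sums (0.02), with no filter on low values, with only the 12 SNU1079 libraries in the fit, and without DMSO replicate 1 (0.21) or 3 (0.39) or YC-1 replicate 1 (0.40) or 3 (0.25).

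HEY1 (ENSG00000164683, 3.9 kb), a repressor related to HES1, was higher mainly in RBE. There its counts were 53.8, 55.1 and 61.5 with DMSO against 221, 223 and 200 with YC-1 at 6 h, and 44.5, 54.1 and 59.6 against 205, 200.2 and 173 at 16 h. The treated means were 3.78-fold and 3.65-fold above the controls. In SNU1079 the counts were 53.5, 41.6 and 43.6 against 59.4, 95.4 and 70.1 at 6 h, and 60.0, 51.8 and 54.9 against 60.7, 57.5 and 58.7 at 16 h. The first pair did not overlap and the second did. HEY1 differed by 1.90 ± 0.19 and 1.86 ± 0.19 for RBE, and by 0.67 ± 0.19 and 0.09 ± 0.19 for SNU1079, on the log2 scale. The call at 6 h in SNU1079 was lost without YC-1 replicate 2, at 0.48, and with only the 12 SNU1079 libraries in the fit.

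**Figure D2:**
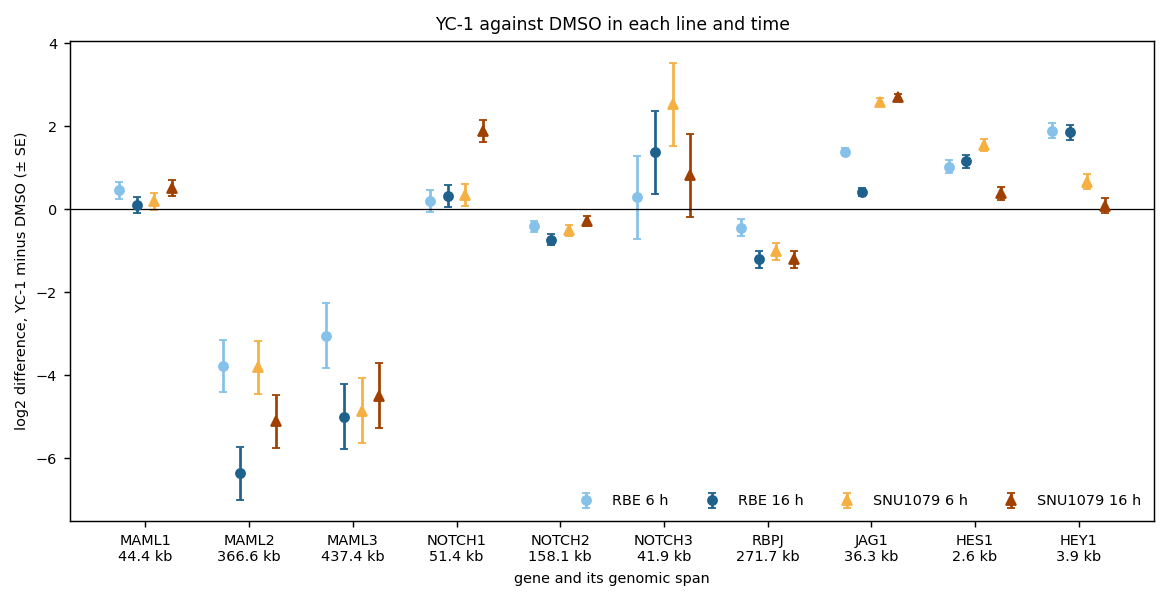
Difference between YC-1 and DMSO on the log2(normalised count + 1) scale for the 10 genes, with the genomic span under each name. Points are limma estimates from 3 libraries a group and bars are ± 1 SE. MAML2 and MAML3 lie between -3.05 and -6.36 in all 4 comparisons, MAML1 between 0.11 and 0.52, and JAG1 between 0.42 and 2.70.

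Whether the effect of YC-1 itself differed between times or lines was tested by interaction contrasts in the same fit. Each is a difference between YC-1 effects that were in view when the genes were chosen. The p-values, above all those of MAML2 and MAML3, are therefore not independent of the choice. These contrasts share libraries with each other and with those above, so they are given side by side and not as repeats. Between 6 and 16 h in RBE, 1 of the 10 genes passed, where 18.2% of all genes did. The effect on JAG1 was smaller at 16 h by 0.97 ± 0.12 on the log2 scale, at -0.97 (adjusted p = 2.92e-05). MAML2 went further down, by -2.58 ± 0.90, and just missed the threshold (adjusted p = 0.0504). It passed with a pseudocount of 10 (-1.33, adjusted p = 0.0267) and with libraries scaled to equal sums (-2.77, adjusted p = 0.0217). It also passed without RBE YC-1 16 h replicate 1 (-3.23) or 2 (-2.98), or YC-1 6 h replicate 2 (-3.08). The value for MAML3 was -1.96 ± 1.11 (adjusted p = 0.244), and -3.07 without YC-1 6 h replicate 2 (adjusted p = 0.0341). RBPJ was at -0.76 ± 0.29 (adjusted p = 0.0749) and passed with equal sums (-1.05, adjusted p = 0.00691), as NOTCH2 did (-0.62, adjusted p = 0.0337). The remaining genes ran up to an adjusted p of 0.938. Over all genes, scaling to equal sums moved the calls from 1571 higher and 1685 lower to 567 and 3437.

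In SNU1079, 2 of the 10 genes passed between 6 and 16 h, where 17.0% of all genes did. The effect on NOTCH1 was larger at 16 h by 1.55 ± 0.38 (adjusted p = 0.00786), and that on HES1 was smaller, at -1.17 ± 0.22 (adjusted p = 0.00104). Both held without the 3 libraries that stood apart, at 1.95 (adjusted p = 2.53e-05) and -1.15 (adjusted p = 0.000188). NOTCH1 was lost with only the 12 SNU1079 libraries in the fit (adjusted p = 0.0835). MAML2 (-1.30 ± 0.90, adjusted p = 0.348) and MAML3 (0.36 ± 1.11, adjusted p = 0.874) did not pass. HEY1 was at -0.58 ± 0.26 (adjusted p = 0.134) and passed without YC-1 6 h replicate 1 (-0.73, adjusted p = 0.0433). It also passed with libraries scaled to equal sums (-0.88, adjusted p = 0.0217). MAML1 passed without the 3 libraries that stood apart (0.73, adjusted p = 0.0329). Scaling to equal sums moved the calls over all genes from 1512 higher and 1524 lower to 499 and 3239.

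Between the lines, the effects at 6 h differed for 2 of the 10 genes, against 1.54% of all genes. The effect on JAG1 was larger in SNU1079 than in RBE by 1.20 ± 0.12 (adjusted p = 1.04e-05), and that on HEY1 was smaller, at -1.23 ± 0.26 (adjusted p = 0.0142). The HEY1 difference missed the threshold without SNU1079 DMSO 6 h replicate 1 (-1.13, adjusted p = 0.0532). At 16 h the effects differed for 4 genes, against 14.6% of all genes. JAG1 was again larger in SNU1079, by 2.28 ± 0.12 (adjusted p = 2.63e-10), as was NOTCH1, by 1.57 ± 0.38 (adjusted p = 0.00759). The targets were smaller there, at -1.77 ± 0.26 for HEY1 (adjusted p = 0.000126) and -0.78 ± 0.22 for HES1 (adjusted p = 0.0196). The HES1 difference missed the threshold without SNU1079 DMSO 16 h replicate 2 (-0.61, adjusted p = 0.0647). The effects on MAML2 did not pass at 6 h (-0.03 ± 0.90, adjusted p = 0.997) or 16 h (1.25 ± 0.90, adjusted p = 0.392), nor did those on MAML3 (-1.81 ± 1.11, adjusted p = 0.594, and 0.51 ± 1.11, adjusted p = 0.813). Without the 3 libraries that stood apart MAML1 also passed at 16 h, with a larger effect in SNU1079 by 0.75 (adjusted p = 0.0294), and NOTCH2 passed without SNU1079 DMSO 16 h replicate 3 (0.60, adjusted p = 0.0292).

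The DMSO libraries show where the genes stood without YC-1. In RBE none of the 10 genes differed between 16 and 6 h in limma, none had an unadjusted p under 0.05, and 0.0448% of all genes were called. In SNU1079, where 8.57% of all genes were called, JAG1 fell by 0.50 ± 0.09 on the log2 scale from 6 to 16 h (adjusted p = 0.00088) and HES1 rose by 0.77 ± 0.15 (adjusted p = 0.00287). NOTCH1 was at -0.83 ± 0.27 (adjusted p = 0.0564) and MAML1 at -0.60 ± 0.20 (adjusted p = 0.0633). Without the 3 libraries that stood apart both passed, at -1.12 (adjusted p = 0.000187) and -0.66 (adjusted p = 0.0105). HES1 was lost with only the 12 SNU1079 libraries in the fit (adjusted p = 0.0652). With equal sums, the calls over all genes changed from 682 higher and 848 lower to 838 and 633.

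SNU1079 and RBE differed with DMSO at 6 h in 2 of the 10 genes, against 56.4% of all genes. NOTCH2 was higher in SNU1079 by 1.47 ± 0.13 (adjusted p = 5.02e-09) and RBPJ lower, at -0.74 ± 0.21 (adjusted p = 0.00441). At 16 h 6 genes differed, against 55.1% of all genes. NOTCH2 was higher by 1.11 ± 0.13 (adjusted p = 3.48e-07) and HES1 by 0.71 ± 0.15 (adjusted p = 0.000565). RBPJ was lower, at -1.13 ± 0.21 (adjusted p = 8.72e-05), as were NOTCH1 at -1.20 ± 0.27 (adjusted p = 0.000683), JAG1 at -0.67 ± 0.09 (adjusted p = 1.54e-06) and MAML1 at -0.47 ± 0.20 (adjusted p = 0.0493). The MAML1 call did not survive leaving out any 1 of the 6 libraries (adjusted p = 0.0575 to 0.136), nor either other scaling. Without the 3 libraries that stood apart MAML1 was still called, at -0.525 (adjusted p = 0.0119). NOTCH3, close to 0 in level, then passed as well, at 2.66 (adjusted p = 0.0443). Neither MAML2 (adjusted p = 0.523 and 0.718) nor MAML3 (adjusted p = 0.107 and 0.386) differed past the threshold between the lines.

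Longer genes of the 10 had lower differences. Spearman's rho between span and difference over the 10 genes was -0.94 at 6 h and -0.92 at 16 h for RBE, and -0.89 and -0.66 for SNU1079. These describe genes measured in the same libraries, and the 2 longest had been chosen for their low values. Over the 17258 tested genes with a span, rho was -0.32 and -0.41 for RBE, and -0.27 and -0.31 for SNU1079. Genes over 300 kb, the class of MAML2 and MAML3, had a median difference at 16 h of -1.26 for RBE and -0.998 for SNU1079, and 65.1% and 59.3% of them were called lower. Genes under 10 kb, the class of HES1 and HEY1, had medians of 0.48 and 0.35.

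Of 590 genes over 300 kb, MAML2 ranked lowest in RBE at both times and as number 2 in SNU1079 at both times. MAML3 ranked as number 3 and 2 in RBE and 1 and 5 in SNU1079. In the class from 100 to 300 kb, RBPJ differed from the class median by -0.01 at 6 h and -0.31 at 16 h for RBE, and by -0.61 and -0.53 for SNU1079. NOTCH2, of the same class, was at 0.03 and 0.16 from the median for RBE, and at -0.11 and 0.39 for SNU1079. JAG1 was 2.70 above the median of genes from 30 to 100 kb in SNU1079 at 16 h, and MAML1 0.51 above it. HES1 lay above the median of genes under 10 kb by 0.93 and 0.68 for RBE, and by 1.44 and 0.03 for SNU1079. HEY1 lay 1.80 and 1.38 above it for RBE, and was at 0.56 and -0.27 from it for SNU1079.

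**Figure D3:**
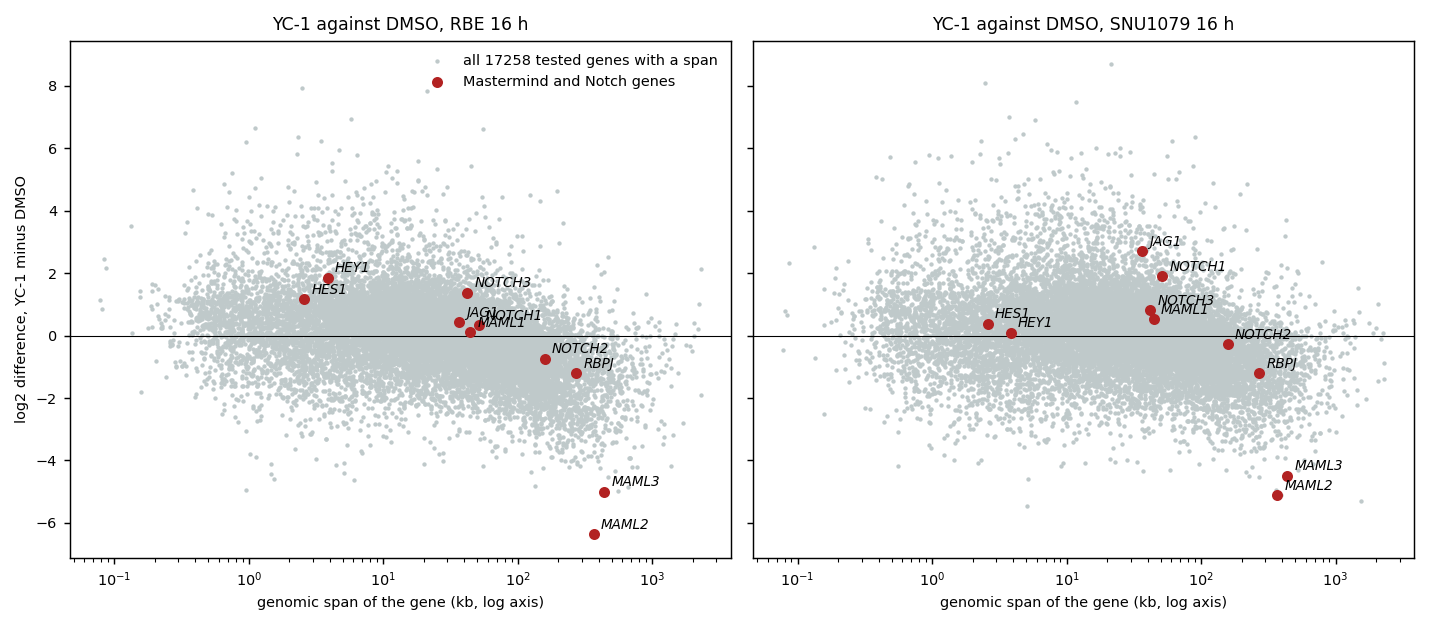
Difference between YC-1 and DMSO at 16 h (log2 scale) against the genomic span of each gene in kb on a log axis, in RBE and SNU1079. Grey points are the 17258 tested genes with a span and red points the 10 Mastermind and Notch genes. MAML2 and MAML3 lie at the lower edge among long genes, at -6.36 and -5.0 for RBE, and at -5.11 and -4.49 for SNU1079.

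The rest of the pathway was read from a list of 60 other Notch genes, of which 54 were tested. They are not among the 10, so their YC-1 contrasts carry tests, but the list was drawn up with results of these data known. For RBE, 6 of the 54 rose and 10 fell at 6 h, and 14 rose and 28 fell at 16 h, where 11.6% and 12.4% of all tested genes were called at 6 h and 27.3% and 26.6% at 16 h. For SNU1079, 8 rose and 11 fell at 6 h, and 19 rose and 19 fell at 16 h, against 14.0% and 14.2%, then 28.7% and 25.8%, of all tested genes. The medians were -0.16 and -0.44 for RBE, then -0.09 and 0.06 for SNU1079, against 0.00, 0.02, 0.01 and 0.06 for all tested genes. With libraries scaled to equal sums the 16 h counts were 6 and 32 for RBE and 11 and 24 for SNU1079, whose median became -0.30. Over the 54 genes, rho between span and difference was -0.62 and -0.56 for RBE, then -0.67 and -0.62 for SNU1079.

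Corepressors are the proteins through which RBPJ silences targets. Of 14 tested, 5 fell at 6 h and 10 at 16 h in RBE, where 1 rose at 16 h. In SNU1079 5 fell at 6 h, and 8 fell and 2 rose at 16 h. All 14 span over 30 kb and 7 span over 100 kb. Of all tested genes from 100 to 300 kb, 35.9% and 60.6% were called lower in RBE and 38.1% and 53.2% in SNU1079. For genes from 30 to 100 kb, the class of the other corepressors, these shares were 10.9% and 29.4% in RBE and 13.1% and 26.6% in SNU1079. Without the 3 libraries that stood apart, 8 fell and 2 rose at 6 h in SNU1079. SPEN, a large scaffold for histone deacetylases, went from 1929 ± 166 to 447 ± 15.4 (SD, n = 3) in RBE at 16 h, at -2.10 ± 0.21 (SE, adjusted p = 2.66e-08 in limma). L3MBTL3, a partner of RBPJ, was at -1.30 in RBE at 6 h and -2.12 at 16 h (adjusted p = 9.3e-07). L3MBTL3 did not pass in SNU1079 at 6 h (-0.27, adjusted p = 0.505) or 16 h (-0.47, adjusted p = 0.14). TLE4, of the Groucho family, fell in SNU1079 from 188 ± 54.5 to 34.3 ± 31.3 at 16 h, at -2.74 ± 0.40 (adjusted p = 6.55e-06). KDM5A, a histone demethylase, fell by 1.38 there (adjusted p = 7.81e-06). CTBP2 fell by 0.84 in RBE at 6 h (adjusted p = 6.69e-07).

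Of the genes that cut the receptor, ADAM10 fell in all 4 comparisons. It went from 3986 ± 111 to 836 ± 57.7 in RBE at 16 h (-2.26 ± 0.14, adjusted p = 3.76e-11 in limma) and from 3680 ± 601 to 1182 ± 150 in SNU1079 at 16 h (-1.63 ± 0.14, adjusted p = 5.21e-09). Of the 9 cleavage genes, it was the only one called at 6 h in either line, or 1 of 2 in SNU1079 without the 3 libraries that stood apart. PSENEN, a small subunit of gamma-secretase, rose by 1.01 in RBE at 16 h (adjusted p = 5.37e-05). It did not pass in RBE at 6 h (adjusted p = 0.5). In SNU1079 it did not pass at 6 h (adjusted p = 0.146) or 16 h (adjusted p = 0.0693). FURIN, the protease that matures the receptor, rose by 0.76 in RBE at 16 h (adjusted p = 0.00132). FURIN was lost there with equal sums (adjusted p = 0.0756). Under that scaling the cleavage genes at 16 h changed from 3 higher and 3 lower to 1 and 4 for RBE. For SNU1079 they changed from 4 and 1 to 0 and 2. In the main fit, 27.3% of all tested genes were called higher and 26.6% lower in RBE at 16 h. For SNU1079 these shares were 28.7% and 25.8%. ADAM10 is the only 1 of the 9 that spans over 100 kb. Of all tested genes from 100 to 300 kb, 35.9% were called lower in RBE at 6 h and 38.1% in SNU1079.

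Another group puts sugars on the receptor. Of its 5 enzymes, 2 rose and 1 fell in RBE at 6 h, and 3 rose and 2 fell at 16 h. In SNU1079 3 rose at 6 h, and 4 rose and 1 fell at 16 h. Their median span is 17.3 kb, and 1 of the 5 spans over 30 kb. Of all tested genes from 10 to 30 kb, 18.4% and 38.6% were called higher in RBE at 6 and 16 h. Another 5.32% and 14.8% were called lower. In SNU1079 these shares were 21.1% and 41.1% higher, and 6.87% and 16.3% lower. POGLUT1, an O-glucosyltransferase, rose in all 4, from 249 ± 18.1 to 438 ± 36.6 in RBE at 6 h (adjusted p = 0.000666) and from 427 ± 62.5 to 820 ± 145 in SNU1079 at 6 h (adjusted p = 0.000131). RFNG, a fringe enzyme, rose in SNU1079 at 16 h from 330.0 ± 35.8 to 1023 ± 92.6 (adjusted p = 7.57e-07). MFNG, another fringe enzyme, fell in RBE at 6 h (-1.10, adjusted p = 0.00799) and 16 h (-1.44, adjusted p = 0.000293). In SNU1079 MFNG was higher at 16 h (1.33, adjusted p = 0.000607) and at 6 h (0.91, adjusted p = 0.0226), the latter not without the 3 libraries that stood apart (0.58, adjusted p = 0.128). With equal sums, 1 rose and 2 fell in RBE at 16 h, with the median of the 5 going from 0.24 to -0.09. Without the 3 libraries that stood apart, 1 rose and 1 fell in SNU1079 at 6 h.

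Among regulators of receptor and ligand turnover, 2 of 10 fell in RBE at 6 h, and 6 fell and 3 rose at 16 h. In SNU1079 3 fell and 1 rose at 6 h, and 5 fell and 2 rose at 16 h. Of the 10, 5 span over 100 kb. Of all tested genes from 100 to 300 kb, 35.9% and 60.6% were called lower in RBE at 6 and 16 h. In SNU1079 these shares were 38.1% and 53.2%. Over all tested genes, 12.4% and 26.6% were called lower in RBE, and 14.2% and 25.8% in SNU1079. Those called higher were 11.6% and 27.3% in RBE, and 14.0% and 28.7% in SNU1079. DTX4, of the Deltex family of ubiquitin ligases, fell at 16 h from 182 ± 12.4 to 47.5 ± 3.34 in RBE (adjusted p = 0.00144) and from 133 ± 12.5 to 54.5 ± 56.6 in SNU1079 (adjusted p = 0.00293). MIB2, a ligase that acts on ligands, rose at 16 h by 1.40 in RBE (adjusted p = 0.00833) and by 2.08 in SNU1079 (adjusted p = 0.000311). FBXW7, the ligase that ends the life of the receptor domain, fell at 6 h in SNU1079 (-1.11, adjusted p = 0.00272) and RBE (-0.73, adjusted p = 0.0453). At 16 h FBXW7 was higher in RBE (0.63, adjusted p = 0.0455) and did not pass in SNU1079 (0.33, adjusted p = 0.294). DTX3 was listed at 0 in all 6 DMSO libraries of SNU1079 and had 19 ± 6.62 with YC-1 at 6 h and 31.9 ± 4.06 at 16 h, and it is named after its values were seen.

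Of the 6 other coactivators, none was called in RBE at 6 h, or 1 was lower with equal sums, while SNU1079 had 1 that rose and 1 that fell. The one that rose was SNW1, by 0.43 ± 0.15 (adjusted p = 0.0323), and the one that fell was CDK8, a kinase of the Mediator complex, at -0.85 ± 0.27 (adjusted p = 0.0192). CDK8, named after its values were seen, was at -0.70 ± 0.27 in RBE at 6 h (adjusted p = 0.0599). By 16 h 3 had fallen in RBE, while 2 had fallen and 1 had risen in SNU1079. With equal sums 4 fell and none rose in each line at 16 h. Of the 6, 3 span over 100 kb. In the main fit, 60.6% of all tested genes from 100 to 300 kb were called lower in RBE at 16 h. In SNU1079 this share was 53.2%. Over all tested genes at 16 h, 26.6% were called lower and 27.3% higher in RBE. In SNU1079 25.8% were called lower and 28.7% higher.

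Of the 6 other targets tested, 3 rose and 1 fell in RBE at 6 h, and 2 rose and 3 fell at 16 h. In SNU1079 2 rose and 1 fell at 6 h, and 4 rose and 2 fell at 16 h. Their median span is 5.7 kb, and none spans over 30 kb. Of all tested genes under 10 kb, 13.7% and 38.3% were called higher in RBE at 6 and 16 h. Another 5.48% and 13.8% were called lower. In SNU1079 these shares were 16.4% and 35.5% higher, and 7.66% and 16.7% lower. SOX9, a transcription factor of bile duct cells, rose in SNU1079 from 727 ± 109 to 2381 ± 332 at 6 h (adjusted p = 1.35e-08) and from 360 ± 23.6 to 1439 ± 353 at 16 h (adjusted p = 3.72e-10), but fell in RBE at 16 h (-0.52, adjusted p = 0.00376). HES4, a relative of HES1, rose in SNU1079 at 16 h by 2.03 ± 0.36 (adjusted p = 7.38e-05 in limma) but did not pass at 6 h (0.79, adjusted p = 0.115). In RBE HES4 rose at 6 h (1.80, adjusted p = 0.000817) and 16 h (2.02, adjusted p = 7.89e-05). MYC rose in RBE at 6 h (0.47, adjusted p = 0.00365) but fell at 16 h in RBE (-1.29, adjusted p = 5.12e-09) and in SNU1079 (-0.68, adjusted p = 2.95e-05).

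Of the 54 genes, 4 rose in all 4 comparisons, namely DLL4, HEY2, POFUT1 and POGLUT1, and 5 fell in all 4, namely ADAM10, CTBP2, NCOR1, NUMB and SPEN. They are named after their values were seen, and POFUT1 was lost in RBE at 6 h with equal sums (0.29, adjusted p = 0.0581). Those that fell span from 92.6 kb (SPEN) to 189.0 kb (NCOR1), and those that rose from 9.7 kb (DLL4) to 30.8 kb (POFUT1). Of all tested genes from 100 to 300 kb, 35.9% to 60.6% were called lower in the 4 comparisons. The share of all tested genes called the same way in all 4 was not taken, so nothing about Notch genes is read from these counts. DLL4, a Delta ligand, had few counts, with 3.54 ± 1.44 against 31.1 ± 9.72 in RBE at 6 h and 6.85 ± 1.56 against 56.5 ± 9.70 in SNU1079 at 16 h. HEY2, the sister of HEY1, had 5.40 ± 0.992 against 26.1 ± 5.60 in RBE at 6 h and 15 ± 5.89 against 39.9 ± 8.08 in SNU1079 at 16 h. In SNU1079 at 16 h HEY2 was therefore called higher (1.42 ± 0.34, adjusted p = 0.00118 in limma), where HEY1 was at 0.09. NCOR1, a corepressor, went from 3088 ± 165 to 1357 ± 12.4 in RBE at 16 h, and NUMB, an inhibitor of the receptor, from 1018 ± 47.6 to 612 ± 32.5.

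**Figure D4:**
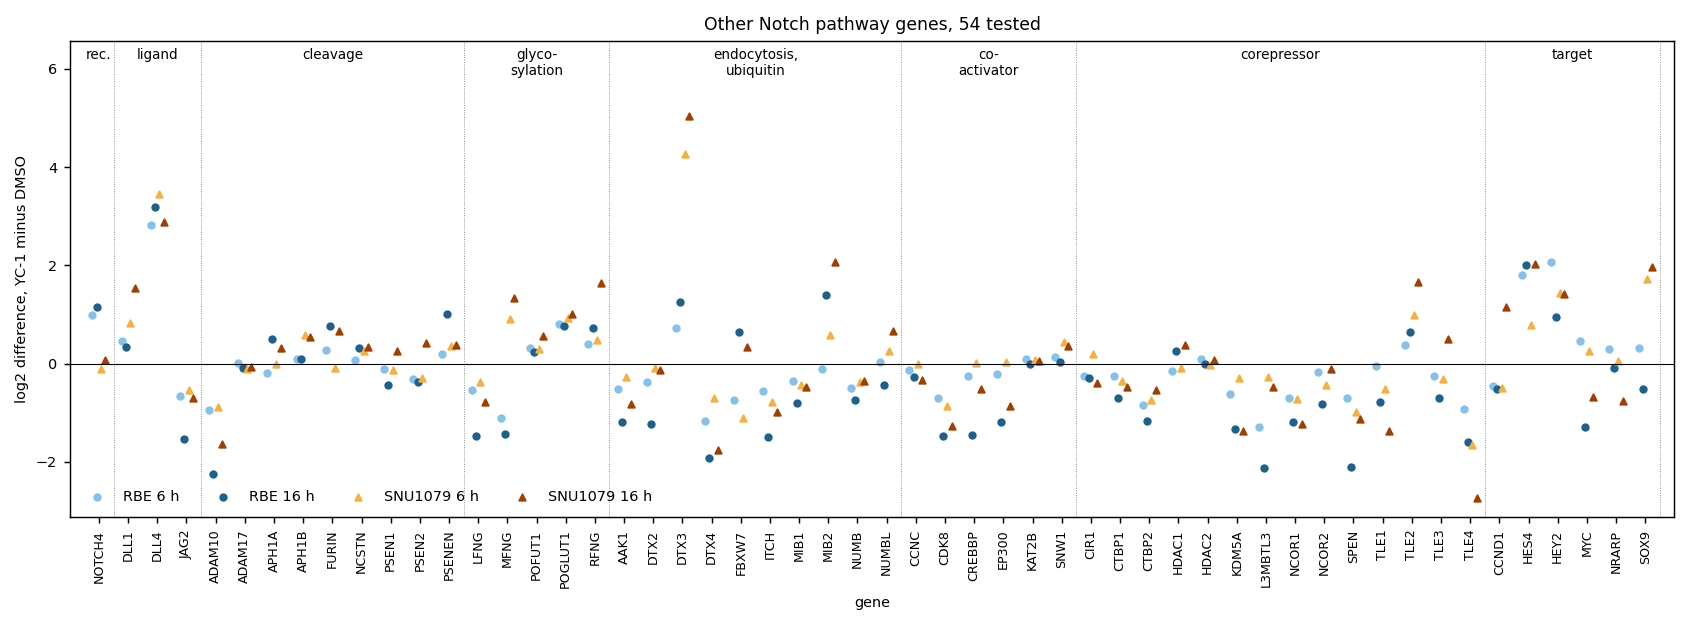
Difference between YC-1 and DMSO (log2 scale) for the 54 tested genes of the list of other Notch genes, grouped by role, in RBE (circles) and SNU1079 (triangles) at 6 h (light) and 16 h (dark). Corepressors lie mostly below 0, with 10 of 14 called lower in RBE at 16 h, and DLL4 lies above 2.8 in all 4 comparisons. The SNU1079 points of DTX3 are set by the + 1 of the scale, since its controls are listed at 0.

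The genes most like MAML2, MAML3 and HES1 were found by Pearson's r over the 24 libraries, each line centred on its mean, among 11279 genes with a mean of at least 100. The libraries are shared by all genes, and most of the spread lies between YC-1 and DMSO. MAML2 was followed most closely by MED6 (r = 0.97), ZFHX3, GLDC, TSPAN5 and MAP3K5, and MAML3 by PPARGC1B (r = 0.94), KMT2C, FUT10, FNIP2 and TSPAN5. The genes like MAML2 span from 19.4 kb in MED6 to 1109 kb in ZFHX3, and their differences in RBE at 16 h lay between -1.38 and -3.36, all smaller than that of MAML2. HES1 was followed by KLF10 (r = 0.93), ENSG00000264112, OSER1, OVGP1 and GOT1. KLF10, an immediate target of TGF-beta, was at 1.25 and 1.45 for RBE at 6 and 16 h and at 1.28 and 0.27 for SNU1079, values close to those of HES1. Among the 10 genes, MAML2 and MAML3 had r = 0.91 with each other, MAML2 and RBPJ 0.88, and HES1 and MAML2 -0.82.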

How the data were processed

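The authors deposited one table of normalised counts per gene, a signal scaled between libraries. The submitters' processing notes name STAR, DESeq2 and hg38 without versions. How reads were counted, with which strand setting and annotation, is not given in the sources used here. The kit was TruSeq Stranded mRNA, per the labels' protocols. Low values were not whole multiples of a step (36.3% to 67.9% within 0.1 of one), so reads were not recovered and depth is known only as sums of normalised counts.

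Genes with at least 10 in at least 3 libraries were kept. The log2 of each normalised count plus a pseudocount of 1 entered limma 3.58.1 under R 4.3.3, with an intensity trend, 1 mean per group over 24 libraries and 16 residual degrees of freedom. Tests are two-sided, adjusted by Benjamini-Hochberg over 17860 genes, with a threshold of 0.05, and were checked on simulated data. Spans came from GENCODE 29 for 17258 genes.

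Times were taken from the titles, because a separate time label gives 16 h for all DMSO and 6 h for all YC-1 samples. Replicate numbers did not pair the samples (correlation of deviations -0.15 to 0.19). The members and lists were chosen with earlier results of these data known. Named genes are all 10 members, from the other Notch list the 4 highest and 4 lowest called with a mean of at least 100 per comparison, 5 genes most like MAML2, MAML3 and HES1, and SULT1A1 and markers. Alternatives were the pseudocount, the filter, 2 other scalings, a replicate block, fits within a line, pooled times and leaving out libraries.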

Additional observations from a re-analysis of the deposited data

Results flagged for a closer look

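The interaction contrasts found 9 differences between times or lines in the effect of YC-1 on these genes, each on the log2 scale with an adjusted p under 0.05 in limma. Between 6 and 16 h, the effect on JAG1 became smaller in RBE (-0.97), and in SNU1079 that on NOTCH1 became larger (1.55) and that on HES1 smaller (-1.17). Between SNU1079 and RBE at 6 h, the effect on JAG1 was larger (1.20) and that on HEY1 smaller (-1.23). At 16 h the effects on NOTCH1 (1.57) and JAG1 (2.28) were larger in SNU1079, and those on HES1 (-0.78) and HEY1 (-1.77) smaller. In SNU1079 the DMSO level of HES1 rose and that of JAG1 fell between 6 and 16 h, and each effect at 16 h is measured against those later controls.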

How the results depend on the processing

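The number of other Notch genes called under YC-1 was 16 in RBE at 6 h and 19 in SNU1079 at 6 h. With only the 12 libraries of a line it was 26 and 12, and with both times pooled 33 and 30. Leaving out each library in turn gave 12 to 15 and 15 to 20 at 6 h, and 37 to 39 in RBE and 33 to 36 in SNU1079 at 16 h. Of the 10 genes, the effect differed between times in RBE for 1, and for 2 with a pseudocount of 10, 4 with equal sums and 3 within the line, with 1 to 3 when libraries were left out. In SNU1079 it differed for 2, and for 1 within the line (2 to 3 with libraries left out). Between lines, leaving out libraries gave 1 to 2 genes at 6 h and 3 to 5 at 16 h. For DMSO at 16 against 6 h the counts were 0 to 0 in RBE and 2 to 3 in SNU1079, where 2 became 1 within the line and 4 without the 3 libraries that stood apart, an alternative chosen after seeing the data. For SNU1079 against RBE with DMSO they were 2 to 2 and 5 to 5. The cause of these shifts was not tested. With the replicate number as a block, the 4 counts of other Notch genes called under YC-1 were 16, 41, 19 and 39. HES1 in SNU1079 at 16 h (0.39) was then no longer called, NOTCH3 in SNU1079 at 6 h (2.54) was, and with DMSO 7 genes differed between lines at 16 h, NOTCH3 among them (adjusted p = 0.0206 in limma). The numbers do not pair the samples, with correlations of -0.15 to 0.19. Among the 10 genes, no called value changed sign under any alternative run. The signs of the other Notch genes were not followed through every alternative. With times pooled they can turn for genes such as MYC, which was higher at 6 h and lower at 16 h in RBE.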
